A study of Mus musculus with 8 samples.

Results

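The constitutive proteasome subunits are the gene products that build the standard proteasome. The Psma and Psmb genes encode its barrel-shaped core particle, and the Psmc and Psmd genes most of its regulatory cap. The members were taken as all gene symbols that consist of Psma, Psmb, Psmc or Psmd and a number. Left out were the interferon-inducible immune subunits Psmb8, Psmb9 and Psmb10. This gave 36 of the 24346 symbols measured, 16 core and 20 cap members. The choice of members used no expression value.

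The proteasome degrades proteins that carry chains of ubiquitin. The cap binds the chain, removes it, unfolds the substrate with a ring of ATPases and feeds it through the alpha ring into the chamber of the core, where 3 beta subunits (Psmb5, Psmb6 and Psmb7) cut peptide bonds. Interferons are known to induce Psmb8, Psmb9 and Psmb10, which replace Psmb5, Psmb6 and Psmb7 in newly assembled cores and change the peptides available for antigen presentation.

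The study concerned interleukin 10 receptor signalling in fibroblasts of the large intestine and its relation to type I interferon signalling. The 4 cKO mice carried a Cre recombinase driven by Pdgfra (Pdgfra cre) on Il10ra flox/flox alleles. The 4 mice titled WT also carried Il10ra flox/flox alleles and no Cre, so both groups were floxed. All mice were 12 weeks old, and each library came from the colon of a separate mouse. Live stromal cells were profiled by RNA-seq of full-length SMART-Seq cDNA. They had been sorted for podoplanin and against the dead-cell dye 7AAD and the markers of leukocytes (CD45), endothelium (CD31) and epithelium (EpCAM). Pdgfra is expressed in only some of the stromal cells, and the sort did not select for cells in which Cre had acted. The values are FPKM, fragment numbers divided by the length of the transcript and by the size of the library.

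Il10ra itself was low in all libraries, with 0.439, 0.273, 0.633 and 0.636 FPKM in the cKO libraries, against 0.842, 0.665, 0.614 and 0.403 FPKM in the WT libraries. The groups overlapped, and the floxed part of the gene is not given in the sources used here, so these values do not check the deletion. Pdgfra lay at 126 to 167 FPKM in cKO and 157 to 161 FPKM in WT libraries, and the sort marker Pdpn at 84.8 to 92.4 FPKM in cKO and 90.4 to 94.7 FPKM in WT libraries. Epcam, a gene of the cells the sort removes, reached 34.7 and 11.6 FPKM in cKO libraries 1 and 2, against 2.72 to 4.02 FPKM in WT libraries. Summed over 12 epithelial markers, the level was 48.3 to 973 FPKM in cKO and 57.4 to 125 FPKM in WT libraries. All 12 epithelial markers had a higher mean in cKO, by a median log2 difference of 0.89, and of 0.21 over the 10 tested without cKO library 1. With all libraries, 0 of the 12 reached an unadjusted limma p under 0.05. Without cKO library 4, which had the lowest epithelial sum, all 12 were higher in cKO at that level. Smooth muscle and pericyte markers were higher in cKO for 6 of 6 tested, 2 of them (Actg2 and Cnn1) at an unadjusted p under 0.05, with summed levels of 29.3 to 58.7 FPKM in cKO and 33.0 to 42.2 FPKM in WT libraries. Endothelial markers were higher for 2 of 2 tested, Pecam1 at that level, with sums of 3.501 to 10.1 FPKM in cKO and 2.70 to 4.38 FPKM in WT libraries. Leukocyte markers were higher for 5 of 9 tested, Fcer1g at that level, with sums of 95.7 to 295 FPKM in cKO and 103 to 161 FPKM in WT libraries. Of the stromal markers, 2 of 8 were higher and 6 lower. Counts of higher and lower means, here and below, are of mean log2(FPKM + 1) values. No marker passed the adjusted limma test, and none was at 0 in any library. The relative depth of the libraries, read from the spacing of low values, differed little (0.868 to 1.10 times that of WT library 1).

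Promoter sequence is shown first, because the subunit genes are known to be controlled together. The transcription factor Nfe2l1 (Nrf1) is known in mouse and human cells to raise subunit genes when proteasome activity falls, through elements of the form TGACNNNGC. The other motifs searched were CCGGAAG, the element of the ETS family, and CCAAT, the element of NF-Y. Each was searched on both strands of the RefSeq promoter windows (GRCm38.p6, 250 bases before to 50 after the gene start), which were found for 29 members (12 core, 17 cap). TGACNNNGC occurred in 5 of the 29 members (17.2%), against 16.98% of the 8754 tested genes with a window. CCAAT occurred in 12 (41.4%), against 42.7% of tested genes. CCGGAAG occurred in 9 of 17 cap members (52.9%) and 1 of 12 core members (8.33%), against 20.7% of tested genes, and in none of the 3 immune subunit genes. No site was tested for binding. The first 3 stretches hold TGACNNNGC, in the promoters of the catalytic genes Psmb5 (chr14:54618019-54618057, minus strand) and Psmb6 (chr11:70525333-70525356, plus strand) and of the cap ATPase gene Psmc6 (chr14:45329582-45329620, plus strand). The other 5 hold CCGGAAG in cap genes, at chr5:21785176-21785212 (Psmc2, plus), chr14:45329709-45329745 (Psmc6, plus), chr11:80428589-80428614 (Psmd11, plus), chr16:20651611-20651647 (Psmd2, plus) and chr3:95042718-95042754 (Psmd4, minus). Each is written 5′ to 3′ on the gene's strand with the motif in capitals, which reads as its reverse complement where the motif lies on the opposite strand.
Psmb5: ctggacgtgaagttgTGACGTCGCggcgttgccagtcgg
Psmb6: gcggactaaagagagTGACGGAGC
Psmc6: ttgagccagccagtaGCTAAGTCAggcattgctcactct
Psmc2: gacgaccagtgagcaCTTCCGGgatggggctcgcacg
Psmc6: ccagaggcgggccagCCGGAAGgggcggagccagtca
Psmd11: aacgcgagggcgggtCTTCCGGgtgt
Psmd2: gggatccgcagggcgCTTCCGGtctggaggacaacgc
Psmd4: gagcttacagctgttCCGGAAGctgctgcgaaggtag

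The core median lay above the cap median in every library. The median level per gene was 108.7 FPKM over the 14 core members that passed the filter (a mean of at least 1 FPKM over the 8 libraries) and 47.4 FPKM over the 20 cap members, all of which passed. Of the 14 core members, 13 lay above the cap median, and none of the 20 cap members reached the core median. This holds for the members as chosen by symbol. The cap members include Psmd5, Psmd9 and Psmd10, low chaperones that leave before the particle is complete. The symbol rule leaves out Adrm1 and Shfm1, counted below among other factors bound to the proteasome. These averaged 46.3 and 237 FPKM, so Shfm1 lay above the core median. The ratio of the core median to the cap median was 2.24 ± 0.124 in cKO and 2.28 ± 0.0739 in WT libraries (SD, n = 4 each). FPKM is scaled per length, and these levels were set beside each other on that basis. Length scaling does not remove other differences between genes, such as the uncertain counting of members with near-identical copies (below). RNA levels also do not give the subunits' amounts in the assembled particle. Together all 36 members took 0.526 ± 0.0113% of the FPKM sum in cKO and 0.514 ± 0.0162% in WT libraries (SD, n = 4 each).

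**Figure D1:**
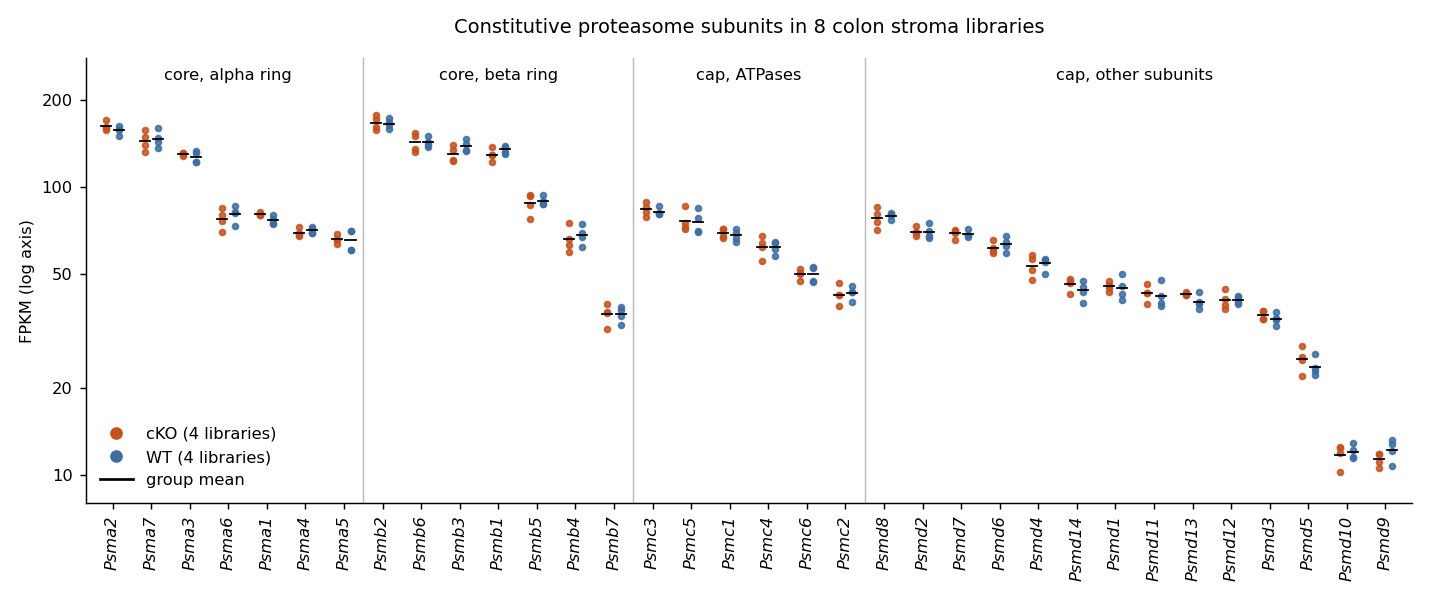
FPKM (log axis) of the 34 tested subunit genes in each library, grouped by gene family, with cKO points left of WT points and short lines at the group means. Core genes lie between 36.2 and 166.8 FPKM on average and cap genes between 11.8 and 82.9 FPKM, and the cKO and WT points of a gene lie at nearly the same height.

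The order of the genes was stable across libraries. Psma2, Psma7, Psmb2 and Psmb6 were among the 5 highest members in each of the 8 libraries, and Psmd5, Psmd9 and Psmd10 among the 4 lowest. The catalytic genes kept the order Psmb6, Psmb5, Psmb7 in 8 of 8 libraries. The subunits of the assembled core stand in equal numbers, whereas their mean FPKM differed by a factor of 4.61 between Psmb2 and Psmb7.

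Between cKO and WT, no constitutive subunit gene passed the test for a difference. At a Benjamini-Hochberg adjusted p under 0.05 (limma on log2(FPKM + 1), over 11506 tested genes), 0 of 34 members were called, and 1 gene in all was called (0.00869% of tested genes). At an unadjusted p under 0.05, 0 of 34 members passed, against 5.41% of tested genes. The groups did not overlap for 1 member, Psma1, against 3.26% of tested genes. The mean log2 value was higher in cKO for 19 members (55.9%) and lower for 15. The share higher was 47.4% over all tested genes. It was 39.6% over tested genes with a mean of at least 10 FPKM, a level every tested member reached. The members' split was 27 higher and 7 lower when each library was rescaled to the same FPKM sum. It was 12 higher and 22 lower without cKO library 1. Since the cells were profiled in bulk, fewer cells of a type and less RNA per cell cannot be told apart.

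The differences were small and the intervals narrow. The log2 difference between cKO and WT ran from -0.10 to 0.09 over the 34 members, with a median absolute difference of 0.029, against 0.068 over all tested genes and 0.057 over tested genes of at least 10 FPKM. Every member's difference lay within 0.1 of 0, against 66.4% of tested genes. The 95% confidence interval of the difference lay within 0.25 of 0 for 32 of 34 members, against 38.7% of tested genes, and within 0.3 for all 34. These shares are over tested genes of any level. The median SE of the difference was 0.061 over the members and 0.092 over all tested genes. It was 0.073 over tested genes of at least 10 FPKM. The widest bounds were -0.26 and 0.26, so larger differences in RNA level lay outside all 34 intervals. The intervals are per gene and not adjusted for the number of genes.

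**Figure D2:**
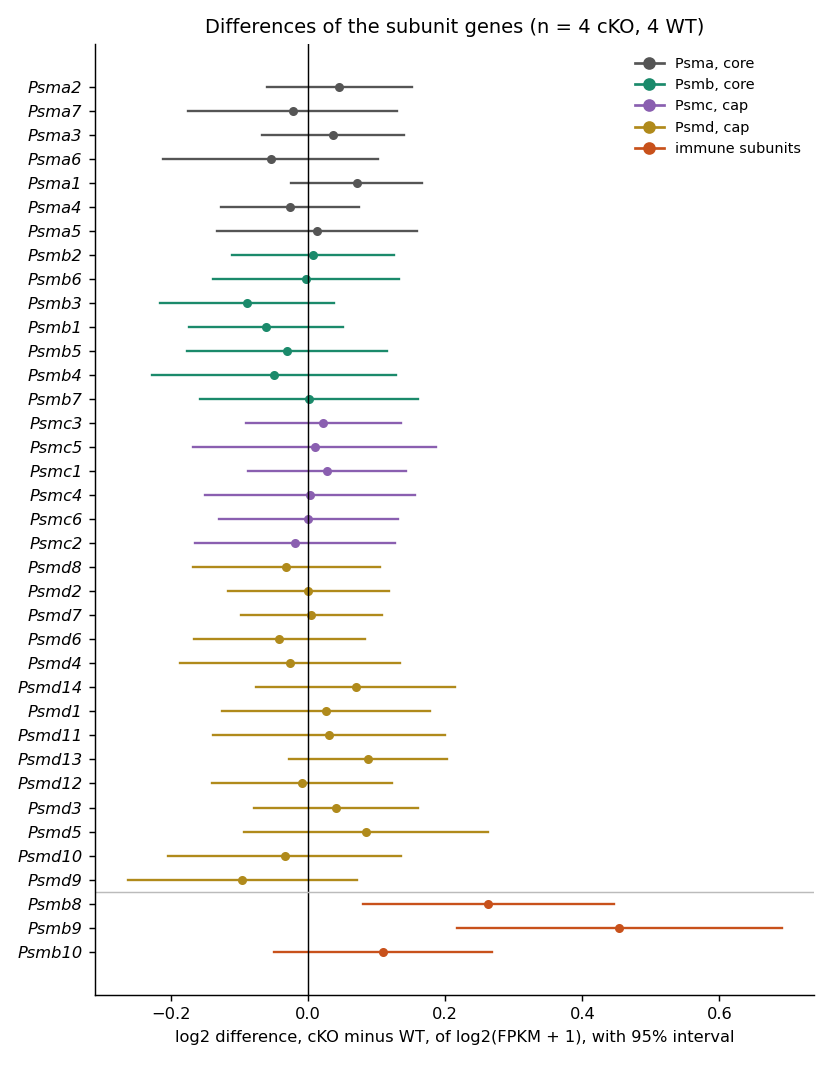
Log2 difference (cKO minus WT) of log2(FPKM + 1) for each of the 34 tested members by gene family and, below the grey line, the 3 immune subunit genes, with points for the limma estimate and bars for its 95% confidence interval. The members' points lie between -0.10 and 0.09 and each of their bars crosses 0, whereas the bars of Psmb8 and Psmb9 lie above it.

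The alpha ring, which forms the gate of the core and docks the cap, had 7 tested members with mean levels of 65.7 to 160.2 FPKM. Of these, 4 had a higher and 3 a lower mean in cKO. Psma2, the most abundant of them (chr13:14613240-14674236 in GENCODE M21, GRCm38), had 171, 160.1, 162 and 158 FPKM in the cKO libraries, against 150.1, 164, 157 and 159.6 FPKM in the WT libraries. The groups overlapped, with the highest value in cKO library 1 and the lowest in WT library 1, and the log2 difference was 0.05 (SE 0.05, limma adjusted p = 0.950). Psma5, the lowest of the ring, had 68.8, 63.3, 65.6 and 65.8 FPKM in cKO, against 60.6, 70.5, 60.5 and 70.3 FPKM in WT libraries. Its WT libraries formed a high and a low pair with all cKO values between them, and the log2 difference was 0.01 (SE 0.07, limma adjusted p = 0.994).

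Psma1, another alpha ring subunit (chr7:114264606-114276118, minus strand), had 80.2, 81.7, 79.9 and 80.3 FPKM in the cKO libraries, against 77.6, 79.7, 74.9 and 74.4 FPKM in the WT libraries. All cKO values lay above all WT values, by a narrow margin over WT library 2. Its mean was 80.5 ± 0.824 FPKM in cKO and 76.7 ± 2.49 FPKM in WT (SD, n = 4 each). The log2 difference was 0.07 (SE 0.04, 95% interval -0.03 to 0.17), with a limma adjusted p = 0.903, so it did not pass the test.

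The 3 catalytic beta genes had nearly the same mean in both groups. Psmb5, the chymotrypsin-like subunit (chr14:54614119-54618022, minus strand), had 93.8, 86.4, 93.4 and 77.8 FPKM in cKO, against 87.7, 94.0, 89.2 and 87.4 FPKM in WT libraries. The lowest value was in cKO library 4 and the highest in WT library 2, and the means were 87.9 ± 7.52 FPKM in cKO and 89.6 ± 3.06 FPKM in WT (SD, n = 4 each). The log2 difference was -0.03 (SE 0.07, 95% interval -0.18 to 0.11, limma adjusted p = 0.980).

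Psmb6, the caspase-like subunit (chr11:70525367-70527858), had 151, 136, 132 and 154 FPKM in cKO, against 138, 144, 141 and 150.3 FPKM in WT libraries. The cKO values lay on both sides of the WT values, with means of 143 ± 10.8 FPKM in cKO and 143 ± 5.34 FPKM in WT (SD, n = 4 each; limma adjusted p = 0.996). Psmb7, the trypsin-like subunit (chr2:38588036-38644087, minus strand), had 39.3, 36.5, 32.3 and 36.9 FPKM in cKO, against 37.3, 38.5, 33.3 and 35.6 FPKM in WT libraries. The groups overlapped fully, with means of 36.2 ± 2.95 FPKM in cKO and 36.2 ± 2.26 FPKM in WT (SD, n = 4 each; limma adjusted p = 0.998). The 95% intervals of the log2 difference were -0.14 to 0.13 for Psmb6 and -0.16 to 0.16 for Psmb7.

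The 4 beta subunits without a catalytic site had mean levels of 66.9 to 166.8 FPKM, and 1 had a higher and 3 a lower mean in cKO. Psmb2, the most abundant member of all, had 178, 161, 172 and 158 FPKM in cKO, against 159, 173, 165 and 168 FPKM in WT libraries. The cKO libraries held both its highest and its lowest value. Psmb3 had 134, 123, 125 and 139.9 FPKM in cKO, against 134, 133, 141 and 147 FPKM in WT libraries. Psmb1 had 138, 129, 129 and 122 FPKM in cKO, against 138, 130.4, 133 and 139 FPKM in WT libraries. Both had a lower mean in cKO with overlapping groups, by a log2 difference of -0.09 for Psmb3 (SE 0.06, limma adjusted p = 0.920) and -0.06 for Psmb1 (SE 0.05, limma adjusted p = 0.929).

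The 6 base ATPases, which unfold the substrate, had mean levels of 42.6 to 82.9 FPKM. Their mean log2 value was higher in cKO for 5 and lower for 1, with log2 differences of -0.02 to 0.03. Psmc3, the highest, had 88.9, 84.99, 81.7 and 78.9 FPKM in cKO, against 80.9, 81.5, 80.9 and 85.7 FPKM in WT libraries (log2 difference 0.02, SE 0.05, limma adjusted p = 0.983). Psmc2, the lowest, had 42.2, 46.3, 42.1 and 38.5 FPKM in cKO, against 39.8, 43.1, 43.2 and 45.2 FPKM in WT libraries (log2 difference -0.02, SE 0.07, limma adjusted p = 0.990). Psmc1 had 71.7, 71.5, 67.5 and 66.4 FPKM in cKO, against 66.7, 69.2, 64.3 and 71.6 FPKM in WT libraries (log2 difference 0.03, SE 0.05, limma adjusted p = 0.977). In each of these genes the groups overlapped.

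The 3 remaining base members with a structural or binding role lay at 44.9 to 69.9 FPKM. Psmd1 and Psmd2 are the large scaffolds that hold incoming proteins, and Psmd4 is a ubiquitin receptor. Their log2 differences ran from -0.03 to 0.03. The 8 lid members, among them the deubiquitinase Psmd14, lay at 35.4 to 78.8 FPKM, with 5 higher and 3 lower means in cKO. Psmd8, the highest of these 8 members, had 85.3, 75.8, 80.4 and 70.7 FPKM in cKO, against 76.8, 80.7, 81.0 and 80.03 FPKM in WT libraries. Its cKO libraries held both its highest and its lowest value (log2 difference -0.03, SE 0.06, limma adjusted p = 0.977).

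Psmd13, a lid subunit (chr7:140881968-140898643), had 42.5, 42.1, 42.3 and 43.1 FPKM in cKO, against 39.9, 39.3, 37.7 and 43.1 FPKM in WT libraries. The first 3 WT libraries lay below all cKO libraries, and WT library 4 lay level with the highest of them. Its log2 difference of 0.09 (SE 0.05, 95% interval -0.03 to 0.20) was the highest among the members and did not pass the test (limma adjusted p = 0.901). Its exons overlap those of Sirt3 on the opposite strand. The strand setting of the counting is not given in the sources used here, so reads within the shared bases cannot be told apart.

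Psmd5, Psmd9 and Psmd10 are chaperones that assemble the base and leave before the particle is complete. They were the lowest tested members, at 11.8 to 24.5 FPKM, and each lay below every other tested member on average. Psmd9 had 11.8, 11.9, 11.1 and 10.6 FPKM in cKO, against 12.1, 13.2, 12.8 and 10.8 FPKM in WT libraries. The first 3 WT libraries lay above all cKO libraries and WT library 4 lay among them. Its log2 difference of -0.10 (SE 0.07, 95% interval -0.26 to 0.07) was the lowest among the members and did not pass the test (limma adjusted p = 0.929).

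The 2 core members that did not pass the filter are tissue-restricted. Psma8, known as an alpha subunit of the testis, ranged from 0.0333 to 0.216 FPKM in cKO and from 0.0711 to 0.765 FPKM in WT libraries. Psmb11, known as the beta subunit of thymic cortical epithelium, ranged from 0 to 0.0368 FPKM in cKO and from 0.0131 to 0.0786 FPKM in WT libraries. Neither was tested.

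The members varied less between mice of a group than most genes did. The SD of the log2 values within groups had a median of 0.085 over the 34 members (0.034 to 0.125), against 0.128 over all tested genes and 0.103 over tested genes of at least 10 FPKM. All 34 lay below the median of all tested genes, most of which have lower levels. Not all lay below that of tested genes of at least 10 FPKM, with Psmb4 at 0.125 and Psmc5 at 0.124. Libraries differed in whether their members were high or low together. The number of the 34 members above their own mean over the 8 libraries was 26, 16, 18 and 13 in the cKO libraries, against 7, 28, 9 and 24 in the WT libraries. cKO library 1 and WT libraries 2 and 4 were thus high, and cKO library 4 and WT libraries 1 and 3 low. In cKO library 4, 11 of the 34 members had their lowest value of the 8 libraries. In cKO library 1, 13 of 14 core members lay above their mean, by a median of 0.080 on the log2 scale. In WT library 3, 4 of 20 cap members lay above theirs, with a median deviation of -0.070 over the cap. Over all tested genes, the median deviation of a library ran from -0.012 to 0.0076.

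**Figure D3:**
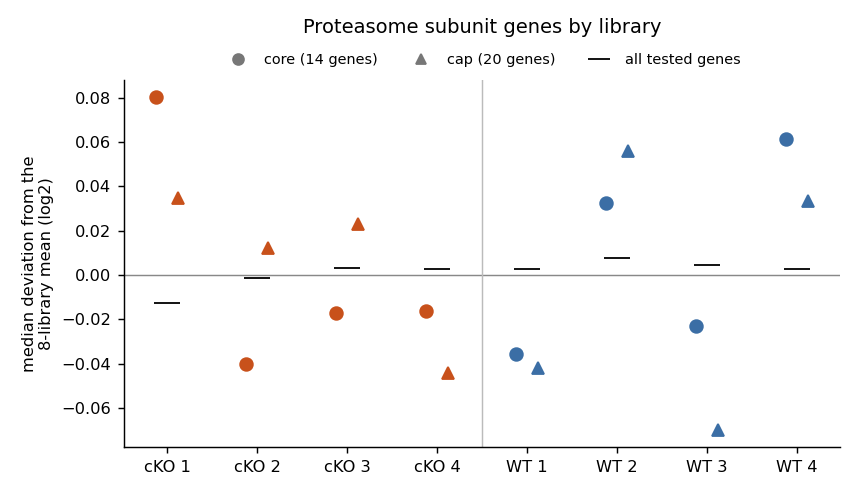
Median deviation of the 14 core members (circles), the 20 cap members (triangles) and all tested genes (dashes) from each gene's mean over the 8 libraries (log2 scale), with cKO libraries left of WT libraries. Core and cap both lie above 0 in cKO library 1 and WT libraries 2 and 4, and both below 0 in cKO library 4 and WT libraries 1 and 3.

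Library cKO 1, in which 11 of the 34 members had their highest value, also had the highest sum of epithelial markers (973 FPKM, against 505, 133 and 48.3 FPKM in cKO libraries 2 to 4 and 57.4 to 125 FPKM in WT libraries). WT library 2, in which 9 members were highest, had an epithelial sum of 93.6 FPKM and the lowest relative depth. Whether either value has a part in the members' levels was not tested. Without cKO library 1, 0 of 34 members were called and the median log2 difference was -0.04 over the core members and -0.0052 over the cap members, against -0.01 and 0.0039 with it.

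The immune subunits, which replace the catalytic members, had higher means in cKO. Psmb8 had 45.8, 50.03, 49.9 and 52.3 FPKM in cKO, against 44.5, 38.8, 35.9 and 45.9 FPKM in WT libraries. Psmb9 had 17.9, 20.2, 21.2 and 20.5 FPKM in cKO, against 13.3, 12.0, 14.7 and 17.6 FPKM in WT libraries. Psmb10 had 34.4, 39.5, 33.1 and 34.3 FPKM in cKO, against 34.0, 32.1, 34.7 and 29.8 FPKM in WT libraries. Psmb9 did not overlap between the groups, Psmb8 overlapped only through cKO library 1 and WT library 4, and Psmb10 overlapped. The log2 differences were 0.26 for Psmb8 (SE 0.08, 95% interval 0.08 to 0.45, limma adjusted p = 0.897), 0.45 for Psmb9 (SE 0.11, 95% interval 0.22 to 0.69, limma adjusted p = 0.897) and 0.11 for Psmb10 (limma adjusted p = 0.920). None passed the adjusted threshold. Mean log2 values were higher in cKO as well for markers of smooth muscle and pericytes (6 of 6 tested), endothelium (2 of 2) and epithelium (12 of 12). The same held for 5 of 9 leukocyte markers. The part of these cell types in the immune subunits' levels was not tested. Without cKO library 1, which had the highest sum of each of these lists, the log2 differences were 0.30 for Psmb8, 0.50 for Psmb9 and 0.12 for Psmb10. The markers still higher in cKO then were 6 of 6, 2 of 2 and 10 of 10, and 3 of 9 for leukocytes. Psmb9 lies head to head with Tap1 and shares exon bases with it on the opposite strand.

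Each immune gene was set against the constitutive gene whose place it takes, by an exact two-sided permutation test of the log2 ratio of FPKM per library, adjusted over the 3 ratios. With 4 against 4 libraries the smallest p this test can give is 0.0286. The ratio of Psmb9 to Psmb6 was 0.119, 0.149, 0.160 and 0.133 in cKO, against 0.0964, 0.0834, 0.105 and 0.117 in WT libraries. All 4 cKO libraries lay above all WT libraries, cKO library 1 only just. The difference was 0.48 on the log2 scale, a ratio 1.40 times as high in cKO (exact permutation p = 0.0286, the smallest possible, adjusted p = 0.0857). After quantile normalization the groups no longer separated fully (log2 difference 0.40, exact permutation p = 0.0571, adjusted p = 0.171).

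The ratio of Psmb8 to Psmb5 was 0.488, 0.579, 0.534 and 0.673 in cKO, against 0.507, 0.412, 0.402 and 0.525 in WT libraries. Of the cKO libraries, 3 lay above all WT libraries and cKO library 1 lay among them, with a log2 difference of 0.30 (exact permutation p = 0.114, adjusted p = 0.171). The ratio of Psmb10 to Psmb7 was 0.874, 1.08, 1.02 and 0.929 in cKO, against 0.910, 0.835, 1.04 and 0.835 in WT libraries. These overlapped, with a log2 difference of 0.11 (exact permutation p = 0.286, adjusted p = 0.286). No ratio passed an adjusted p of 0.05. With full separation in only 1 of the 3 ratios, no adjusted p could have passed. The adjusted test thus could not call Psmb9 over Psmb6 alone.

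**Figure D4:**
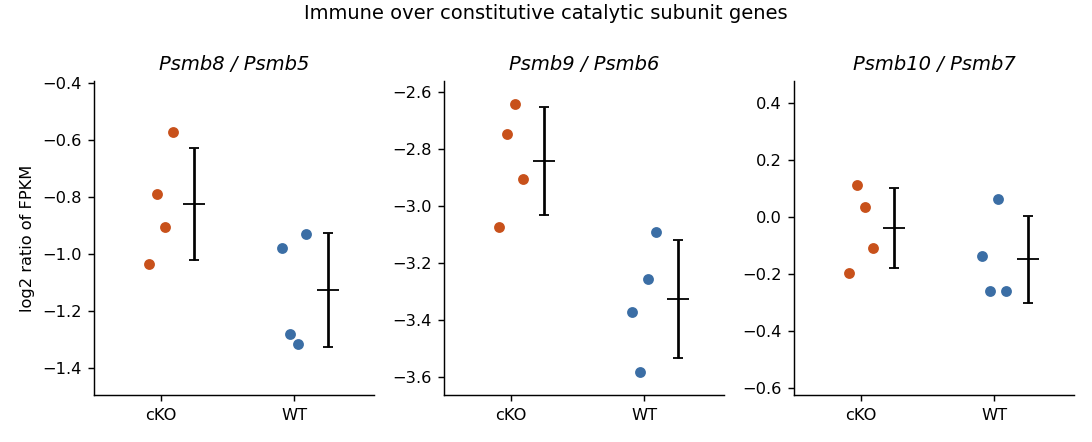
Log2 ratio of each immune catalytic gene to the constitutive gene it replaces, 1 point per library with cKO left of WT and bars for the group mean ± SD (n = 4 each), on vertical axes of equal span. The Psmb9 to Psmb6 points of cKO lie above all WT points, those of Psmb8 to Psmb5 overlap through cKO library 1, and those of Psmb10 to Psmb7 overlap.

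Of the FPKM summed over the 6 catalytic genes, the immune genes took 25.7%, 29.8%, 28.8% and 28.5% in the cKO libraries, against 25.9%, 23.1%, 24.5% and 25.4% in the WT libraries. Library cKO 1 lay within the WT range and the other 3 above it. The sum of the 3 constitutive genes was 267 ± 12.3 FPKM in cKO and 269 ± 7.03 FPKM in WT, and that of the 3 immune genes 105 ± 4.99 FPKM in cKO and 88.3 ± 4.99 FPKM in WT (SD, n = 4 each).

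Other genes of the pathway were counted from lists named by function. No gene of any of these lists passed the adjusted limma test, and 2 lists held genes at an unadjusted p under 0.05: the immune subunits (2 of 3, both higher) and the ubiquitin genes with their E1 enzymes (2 of 6, both lower). In the ubiquitin list this rested partly on Ubb, which passed under 12 of 19 alternatives, while Rps27a passed under all 19. The count was 1 of 6 with rescaling to the same FPKM sum, no filter or the replicate block, and without cKO library 3 or WT library 1, 3 or 4. The counts compare with 2.37% of tested genes that were higher and 3.03% that were lower at that level. All 6 ubiquitin and E1 genes had a lower mean in cKO. This became 5 of 6 when libraries were quantile normalized, rescaled to the same FPKM sum, or cKO library 1 was left out. Of all 11506 tested genes, 6055 had a lower mean in cKO, and 3396 of the 5625 with a mean of at least 10 FPKM. Rps27a, which encodes ubiquitin fused to a ribosomal protein, had 313, 277, 315 and 268 FPKM in cKO, against 331, 336, 326 and 349 FPKM in WT libraries. Ubb, a polyubiquitin gene, had 2719, 2888, 2763 and 2766 FPKM in cKO, against 3103, 2929, 3075 and 3041 FPKM in WT libraries. Neither gene overlapped between the groups. The log2 difference was -0.20 for Rps27a (SE 0.06, limma adjusted p = 0.897) and -0.13 for Ubb (SE 0.05, limma adjusted p = 0.897).

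Of the 5 genes for activators of the core and its inhibitor, 4 had a higher and 1 a lower mean in cKO. The interferon-inducible activator genes Psme2 and Psme1 had higher means in cKO, by log2 differences of 0.10 and 0.05 (limma adjusted p = 0.922 and 0.951). Psme2 averaged 120.2 ± 9.70 FPKM in cKO and 112 ± 6.53 FPKM in WT (SD, n = 4 each). Psme1 averaged 65.1 ± 2.14 FPKM in cKO and 62.9 ± 3.52 FPKM in WT (SD, n = 4 each). Psme2 reached an unadjusted limma p under 0.05 only without cKO library 2. Of 6 assembly factors, 1 had a higher and 5 a lower mean in cKO. Pomp, which matures the core, averaged 108 ± 3.07 FPKM in cKO and 113 ± 9.67 FPKM in WT. AI314180, listed under the older symbol of Ecpas, a scaffold that binds proteasomes, averaged 12.6 ± 0.437 FPKM in cKO and 13.8 ± 0.917 FPKM in WT (SD, n = 4 each).

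Among 7 regulators of the Nrf1 and Nrf2 pathway, 2 had a higher and 5 a lower mean in cKO. Nfe2l1, the factor named above for the subunit genes and given here for that role, after its values were seen, averaged 52.6 ± 2.51 FPKM in cKO and 53.0 ± 2.02 FPKM in WT (SD, n = 4 each; limma adjusted p = 0.993). Nfe2l2 averaged 57.0 ± 1.14 FPKM in cKO and 58.9 ± 2.39 FPKM in WT, and the small partner gene Maff 17.8 ± 5.32 FPKM in cKO and 20.1 ± 3.11 FPKM in WT (SD, n = 4 each). The shuttle factors, which carry ubiquitylated proteins to the cap, had 2 higher and 4 lower means of 6. Of these, Ubqln1 averaged 38.1 ± 2.47 FPKM in cKO and 39.5 ± 2.73 FPKM in WT, and Ubqln4 10.6 ± 1.16 FPKM in cKO and 11.3 ± 0.954 FPKM in WT (SD, n = 4 each).

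The unfoldase p97 and its cofactors, which extract ubiquitylated proteins before degradation, had 3 higher and 3 lower means of 6. Nploc4 averaged 13.04 ± 0.9748 FPKM in cKO and 12.3 ± 0.939 FPKM in WT, and Faf2 19.6 ± 1.39 FPKM in cKO and 20.5 ± 1.24 FPKM in WT (SD, n = 4 each). Of 6 other factors bound to the proteasome, 5 had a higher and 1 a lower mean in cKO, and 3 and 3 without cKO library 1. The ligase gene Ube3c averaged 12.98 ± 0.892 FPKM in cKO and 11.6 ± 2.99 FPKM in WT, and Akirin2, which brings proteasomes into the nucleus, 16.4 ± 1.35 FPKM in cKO and 15.4 ± 2.18 FPKM in WT (SD, n = 4 each).

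The 36 members lie on 16 chromosomes, with 6 on chromosome 11 and 5 on chromosome 2. Transcripts of 9 members (Psma3, Psma4, Psma5, Psmb3, Psmb5, Psmc1, Psmd1, Psmd2 and Psmd11) match a copy elsewhere in the annotation at 95% identity or more over at least 200 bases. None of these copies is listed among the symbols measured, so how their reads were counted is uncertain. Exons of 6 members overlap another listed gene, Psma4 with AY074887, Psmb5 with Mir686, Psmb7 with Nek6, Psmc3 with Slc39a13, Psmd1 with Htr2b and Psmd13 with Sirt3.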

How the data were processed

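RNA of sorted large-intestinal stromal cells from 4 cKO and 4 WT mice was measured in 8 libraries, grouped by title. The authors deposited FPKM per gene for each library. The submitters' processing notes name Cufflinks 2.2.1, Cuffdiff, TopHat2 2.1.1, SAMtools 0.1.18, Bowtie2 2.3.5.1 and the build mm10. Not given in the sources used here are the strand setting, the gene annotation and further scaling. FPKM depends on the whole library, so abundant genes that differ shift all others. Fragment counts were not used and depth in fragments is unknown; relative depth was read from values on whole steps (48.0% to 56.3% of genes with a mean under 0.3 FPKM, tolerance 0.002 on the log2 scale).

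Values were transformed to log2(FPKM + 1). The 11506 genes with a mean of at least 1 FPKM were fitted with limma 3.58.1 in R 4.3.3 (eBayes with trend), with Benjamini-Hochberg adjustment over all of them and a threshold of 0.05. Log2 differences are on this scale, which understates low genes. The fit was tested on simulated data with independent genes and shifts larger than any member's difference. That test did not cover differences as small as those of the members. The 3 catalytic ratios were tested by exact permutation of the libraries (scipy 1.17.1). Alternatives were other scalings, pseudocounts, filters, variance settings, a replicate block and leaving out each library. Copies were sought with BLAST+ 2.17.0 in GENCODE M21, whose GRCm38 build is that of the values.

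The members, lists, roles, motifs and printed sequences were chosen with earlier results of these data known. Values in every library are given for the catalytic genes and their immune counterparts, and in each family for the highest, the lowest and the 2 members with the smallest p. They are also given for members whose groups do not overlap. The 2 genes with the smallest p are named in each other list. A planned comparison of the protein sequences of the catalytic pairs was not analysed here.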

Additional observations from a re-analysis of the deposited data

Results flagged for a closer look

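In 6 of 114 groups of 4 libraries examined, 1 library stood apart, its gap to the nearest of the others taking a larger share of the group's range than Dixon's 95% critical value for 4 values. Of these, 3 were among the 68 groups of tested members, and at this level chance alone gives such values in about 5% of groups. Psma3 had 128.4 FPKM in cKO library 2, below 130.8 to 131.1 FPKM in the other cKO libraries, a small step in an otherwise tight group. Psmc3 had 85.7 FPKM in WT library 4, above 80.9 to 81.5 FPKM in the other WT libraries. Psmd4 had 49.96 FPKM in WT library 1, below 55.1 to 56.1 FPKM in the other WT libraries. Outside the members, Pomp had 112.1 FPKM in cKO library 1, above 105.5 to 106.3 FPKM in the other cKO libraries. Akirin2 had 14.4 FPKM in cKO library 1, below 16.8 to 17.3 FPKM in the other cKO libraries. Nploc4 had 10.9 FPKM in WT library 2, below 12.7 to 12.8 FPKM in the other WT libraries.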

How the results depend on the processing

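Under all 19 alternatives, 0 of 34 members were called by limma, and the smallest adjusted p of a member lay between 0.774 and 0.99996. Members at an unadjusted p under 0.05 numbered 0, against 1 after quantile normalization (Psma1), 2 after rescaling to the same FPKM sum (Psma1 and Psmd13) and 0 to 1 when single libraries were left out (1, Psmd13, without WT library 4). Members with a higher mean in cKO numbered 19, and 12 to 21 when single libraries were left out, with 12 without cKO library 1, WT library 1 or WT library 3. The 1 gene called among all became 1 to 4 when single libraries were left out, 4 of them without cKO library 1, 2 without cKO library 2 and 3 without WT library 3. The cause was not tested. The catalytic ratios kept their direction and stayed above an adjusted p of 0.05, but the groups' full separation in Psmb9 over Psmb6 was lost after quantile normalization (exact p = 0.0571). Without a library their smallest possible p is 0.0571. Over 32 named genes and 19 alternatives (608 values), 28 changed sign, each by a difference within its own SE that was not called and so counted as unchanged, and 0 changed their call. The replicate numbers did not clearly pair the libraries, and only cKO library 1 matched its same-numbered WT library best. The correlations behind this ran from 0.0182 to 0.0912 for same-numbered libraries. They are not those of the log2 values, which ran from 0.965 to 0.989 between libraries. With the replicate block, 1 gene and 0 members were called, and the ratio tests gave exact p values of 0.25, 0.125 and 0.5 for Psmb8, Psmb9 and Psmb10, where 0.125 is the smallest possible. Depth in fragments is unknown, so no counting error is given for the low genes Psma8, Psmb11 and Il10ra.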
